A study of Homo sapiens with 9 samples.

Results

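Mitosis and spindle genes are 41 genes that code for the machinery of cell division, from the kinase CDK1 to the separase ESPL1. They were selected by gene name, by a rule that uses no measured value, but the list was drawn up with earlier results of these data known. All 41 were found among the 58735 genes counted, and all 41 were among the 16874 genes kept after the filter on low counts. RNA was sequenced in bulk from U87, an established human glioblastoma line, with 9 libraries in 3 groups of 3. One group stably expressed an introduced IDH1 with the R132H mutation and a serine in place of a cysteine (IDH1mt C269S, shortened to C269S). The second expressed the R132H mutant without that replacement (IDH1mt), and the third carried the PCDH vector alone (PCDH). The study was designed to ask how palmitoylation that the mutant enzyme performs on itself acts on gene expression. No group here carried an introduced IDH1 without R132H. The labels give neither the number of clones behind a group nor the origin of its libraries from the same or separate cultures. The p-values therefore rest on a spread between libraries that may be technical.

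CDK1 bound to cyclin B drives a cell into mitosis, where microtubules of the spindle attach to kinetochores and pull the chromosomes apart. The spindle checkpoint holds the cell until all chromosomes are attached. The anaphase-promoting complex, activated by CDC20, then marks cyclin B and securin for destruction. Many of these genes are silenced in resting cells and switched on late in the cell cycle through short promoter elements, among them the cell cycle genes homology region (CHR) and the CCAAT box, which binds NF-Y. Their transcripts are therefore widely used as a readout of proliferation in glioblastoma and other tumours.

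The promoters of 34 members were held in a RefSeq table (GRCh38.p14), each as 300 bases from 250 before to 50 after the start of transcription. The first entry of each gene was used, and its start can lie inside the annotated gene, as for AURKB, NUF2 and SPC25. The CHR letters TTTGAA or TTTAAA stood on either strand in 29 of 34 members (85.3%), against 24% of 35116 promoters in the table. The CCAAT letters stood on either strand in 27 of 34 members (79.4%), against 34.6% of all promoters. Both stood together in 23 of 34 members (67.6%), against 9.27% of all promoters. The letters GGCGG, searched as a stand-in for the cell-cycle-dependent element, stood in 34 of 34 members (100%), but also in 59% of all promoters. Replication and G1/S genes, which act earlier in the cycle, held the CHR letters in 4 of 36 promoters (11.1%) and the CCAAT letters in 20 of 36 (55.6%). They held the GGCGG letters in 34 of 36 (94.4%), near the share of the members. Matches on opposite strands can overlap, as the CCAAT letters do in PTTG1. These matches are descriptions of sequence, not binding sites.

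The promoters of CDK1, TOP2A, AURKB and CCNB1 are shown because the first 3 are members that passed a test between the groups and the last is the partner of CDK1. FOXM1 and UBE2C also passed and are not among the 34. They lie on GRCh38.p14 at chr10:60778081-60778380 (plus strand), chr17:40417847-40418146 (minus strand), chr17:8210176-8210475 (minus strand) and chr5:69166900-69167199 (plus strand). Each is written 5′ to 3′ on the strand of its gene, and capitals mark the CHR and CCAAT letters on either strand.
CDK1: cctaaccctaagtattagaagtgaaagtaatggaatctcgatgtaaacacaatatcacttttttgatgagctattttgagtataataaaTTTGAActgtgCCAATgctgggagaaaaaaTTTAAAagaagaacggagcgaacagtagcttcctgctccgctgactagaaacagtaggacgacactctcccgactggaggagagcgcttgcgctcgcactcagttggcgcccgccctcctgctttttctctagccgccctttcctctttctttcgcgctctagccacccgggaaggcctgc
TOP2A: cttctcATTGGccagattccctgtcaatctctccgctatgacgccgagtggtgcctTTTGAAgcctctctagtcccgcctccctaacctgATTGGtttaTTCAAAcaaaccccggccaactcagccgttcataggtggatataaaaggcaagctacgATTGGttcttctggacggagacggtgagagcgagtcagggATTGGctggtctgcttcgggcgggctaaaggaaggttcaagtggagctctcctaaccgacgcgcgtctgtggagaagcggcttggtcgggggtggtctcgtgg
AURKB: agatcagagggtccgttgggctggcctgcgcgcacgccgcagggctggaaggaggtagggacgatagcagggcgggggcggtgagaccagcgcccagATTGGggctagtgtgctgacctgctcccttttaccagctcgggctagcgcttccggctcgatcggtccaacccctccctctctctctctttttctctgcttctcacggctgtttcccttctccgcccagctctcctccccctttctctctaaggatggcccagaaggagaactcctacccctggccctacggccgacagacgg
CCNB1: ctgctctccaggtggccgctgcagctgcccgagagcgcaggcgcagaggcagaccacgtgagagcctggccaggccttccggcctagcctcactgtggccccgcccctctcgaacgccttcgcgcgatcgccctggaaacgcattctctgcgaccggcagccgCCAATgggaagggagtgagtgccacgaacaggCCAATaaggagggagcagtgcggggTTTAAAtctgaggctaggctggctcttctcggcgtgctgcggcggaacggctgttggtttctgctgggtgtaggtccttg
CDK1 held CHR letters at -161 and -131 and CCAAT letters at -150, counted from the start of transcription. TOP2A held 2 CHR and 4 CCAAT matches, and CCNB1 held 1 CHR and 2 CCAAT matches. AURKB held 1 CCAAT match and no CHR letters in this window. The window lies wholly inside the annotated gene, which runs from 8204733 to 8210600, so bases upstream of the gene were not searched. The CHR letters stood in 2 of 3 members with a promoter that passed in a comparison (66.7%) and in 27 of 31 that passed in none (87.1%). For the CCAAT letters it was 3 of 3 (100%) and 24 of 31 (77.4%). With 3 promoters in the first set, and that of AURKB inside its gene, these shares are a description only.

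Each library held 19108925 to 24803711 counts, and levels are given as CPM, the count relative to the library total, scaled by TMM (a trimmed mean of log ratios between libraries). The labels were checked on IDH1, which had 718 to 773 CPM in C269S libraries, 660.2 to 693 CPM in IDH1mt libraries and 102 to 118 CPM in PCDH libraries. This checks the vector group against the groups with introduced IDH1. IDH1 did not pass in C269S against IDH1mt (log2 fold change 0.13, adjusted p = 0.227, edgeR quasi-likelihood test). Which columns are IDH1mt and which C269S therefore rests on their names. Gene counts do not separate the introduced from the resident IDH1. Of 5 markers of the labelled cell type, VIM, CD44, TNC and FN1 lay between 2631 and 14893 CPM and SOX9 between 15.8 and 27.6 CPM. The immune markers PTPRC, CD3E and ITGAM reached at most 0.366 CPM. The neuronal marker SNAP25 lay higher than SOX9, at 43.8 to 56.7 CPM, while RBFOX3 and SYP reached 1.29 and 9.51 CPM. Endothelial PECAM1, CDH5 and KDR reached 7.06, 0.89 and 17.4 CPM, and epithelial EPCAM, CDH1 and KRT8 1.44, 0.137 and 3.41 CPM. The mature astrocyte markers GFAP, AQP4 and ALDH1L1 reached 4.26, 0 and 0.513 CPM. CDKN2A and CDKN2B, deleted in this line, had 0 counts in every library. Mitochondrial genes took 3.18 to 3.34% of counts in C269S libraries, 3.72 to 3.80% in IDH1mt libraries and 2.91 to 3.35% in PCDH libraries. Their part in the results was not tested.

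PCDH replicate 3 and C269S replicate 3 differed most from the other libraries of their groups along the GC content of the genes. Across 12759 genes, the deviation of PCDH replicate 3 from its group had a Spearman correlation with GC content of -0.56, and that of C269S replicate 3 had one of 0.56. For PCDH replicates 1 and 2 the values were 0.32 and 0.39, and for C269S replicates 1 and 2 they were -0.26 and -0.39. Each deviation is taken from the other libraries of the group, so the values within a group are tied to each other. For IDH1mt libraries the values lay between -0.05 and 0.04. Members had a median GC content of 43.2%, against 48.4% over all genes tested, and ranged from 35.3% in CENPE to 59.6% in INCENP. Across the 41 members the correlation was -0.79 in PCDH replicate 3 and 0.77 in C269S replicate 3. It was 0.74 and 0.29 in PCDH replicates 1 and 2, and -0.41 and -0.61 in C269S replicates 1 and 2. PCDH replicate 3 was the highest PCDH library for 27 of 41 members (65.9%), against 37.6% of all genes. Counts of members are therefore also given without these libraries and after a GC correction, both chosen after the data were seen.

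**Figure D1:**
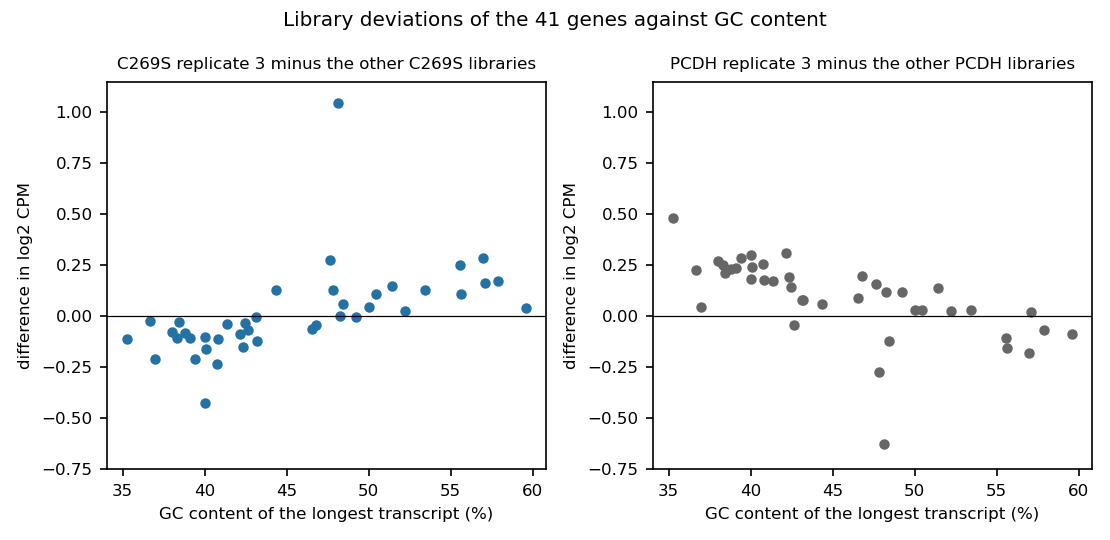
Difference in log2 CPM between C269S replicate 3 and the other C269S libraries (left) and between PCDH replicate 3 and the other PCDH libraries (right), against the GC content of the longest transcript in percent, with 1 point for each of the 41 genes. The points rise with GC content on the left (Spearman 0.77) and fall with it on the right (Spearman -0.79).

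The comparison of IDH1mt with PCDH sets cells with the R132H mutant against cells with the vector alone. IDH1 RNA itself was higher in IDH1mt (log2 fold change 2.61). Without a group of unmutated introduced IDH1, the mutation, the higher IDH1 level and other differences between the stable groups cannot be told apart. CDK1, AURKB, TOP2A, UBE2C and FOXM1 fell in IDH1mt cells by 11.6 to 19.1%, and no member passed as higher. In bulk RNA, fewer cells in mitosis and less RNA per cell cannot be told apart. The 5 members called as lower make up 12.2% of the 41, against 6.9% of all genes tested, while 0 were called as higher, against 7.18% (edgeR quasi-likelihood test, Benjamini-Hochberg adjusted p under 0.05 over all 16874 genes). At an unadjusted p under 0.05, 10 members were lower and 0 higher. All genes were not counted at that threshold, so these counts are a description only. DESeq2 called 5 lower (against 6.72% of all genes) and 0 higher (against 7.62%). The log2 fold change was below 0 for 35 of 41 members (85.4%), against 51.3% of all genes. The median was -0.10 for the members and -0.01 for all genes. The 3 IDH1mt libraries lay below all 3 PCDH libraries for 14 members (34.1%, against 14.9% of all genes) and above them for 1 member (2.44%, against 14.3%), ESPL1.

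The whole set took 0.448 to 0.470% of counts in C269S libraries, 0.409 to 0.413% in IDH1mt libraries and 0.439 to 0.471% in PCDH libraries. The IDH1mt range lies below both others, which overlap. These shares are of library totals without the TMM scaling. The TMM factors were 0.978 to 0.990 in IDH1mt libraries and 1.002 to 1.025 in PCDH libraries, so scaling narrows the gap between these groups.

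**Figure D2:**
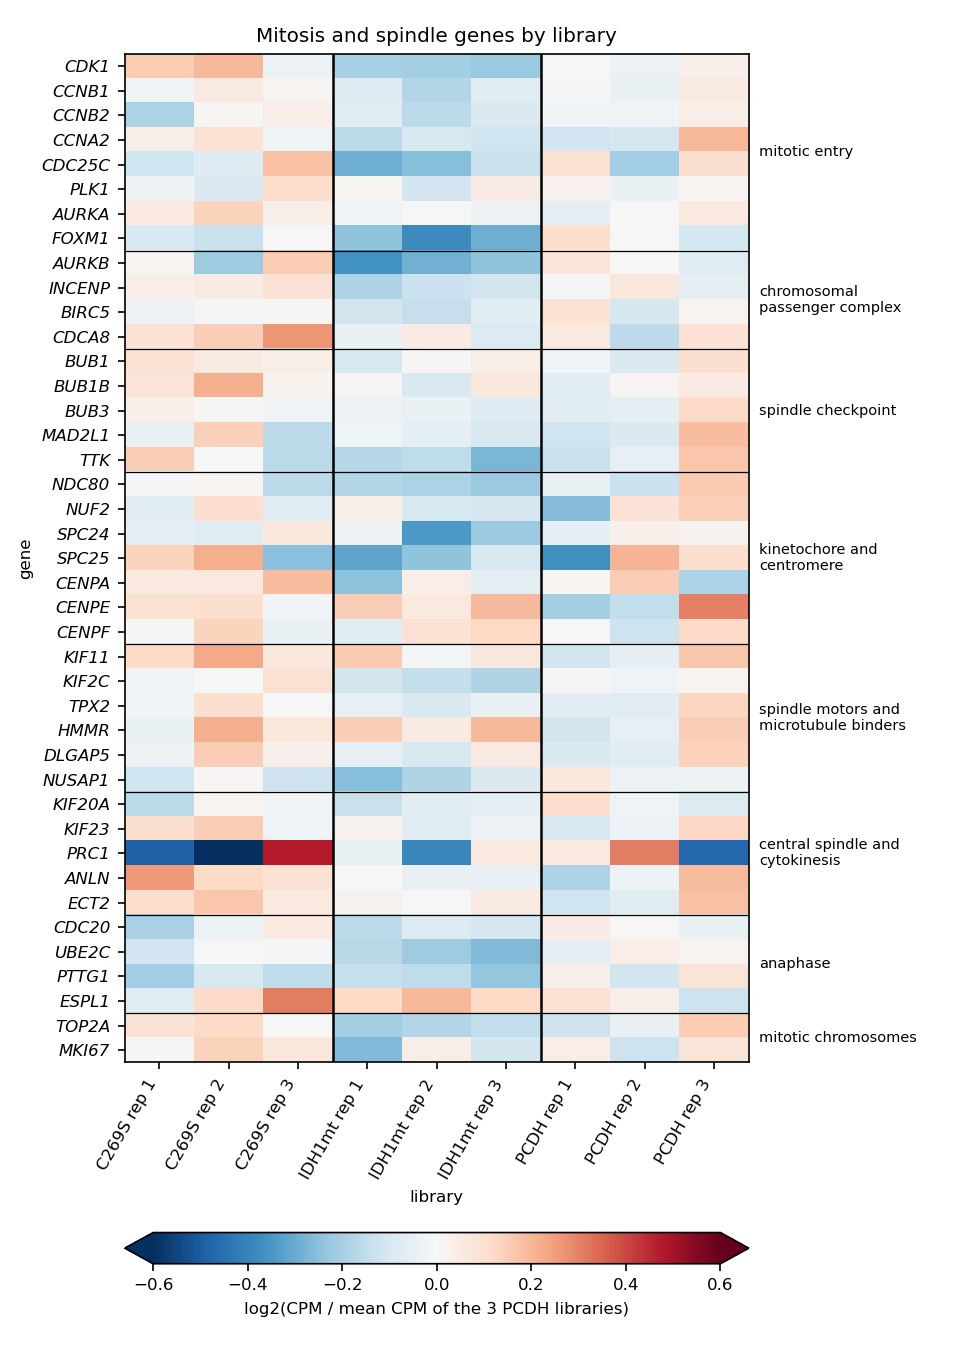
Log2 ratio of each library's CPM to the mean CPM of the 3 PCDH libraries, with the 41 genes as rows grouped by role and the C269S, IDH1mt and PCDH libraries as columns from left to right. CDK1, FOXM1, AURKB and UBE2C are blue in all 3 IDH1mt libraries, CENPE and HMMR are red there, and PRC1, with 26 to 67 counts in a library, scatters most.

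The comparison of C269S with PCDH asks whether the mutant without the cysteine leaves these transcripts where the vector does. Here too the introduced gene and other differences between the stable groups cannot be told apart. No member was called as lower (background 0.533%) and none as higher (background 0.883%) by edgeR's test. At an unadjusted p under 0.05, 1 member was lower and 2 were higher, a description only because all genes were not counted there. DESeq2 called 0 in either direction, with an adjusted p for 40 of the 41 (against 0.986% of all genes lower and 1.87% higher). The log2 fold change ranged from -0.15 for PTTG1, which had the lowest adjusted p at 0.325, to 0.17 for CDCA8. The median was 0.03, and 16 of 41 values were below 0 (39%, against 52% of all genes). The 95% interval lay within a 1.5-fold change in either direction for 40 of 41 members, PRC1 being the exception. The groups did not overlap for 0 members lower (background 7.57%) and for 1 member higher, CDCA8 (background 7.62%). A p above the threshold does not show equal levels. Without PCDH replicate 3, 4 members passed as higher, namely ANLN, CENPE, ECT2 and KIF11, against 3.19% of all genes.

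The comparison of C269S with IDH1mt sets the mutant without the cysteine against the mutant with it. The cysteine and other differences between these stable groups cannot be told apart. CDK1, TOP2A, AURKB and FOXM1 were higher in C269S cells by 17.3 to 24.5%, and no member passed as lower. The 4 members called as higher make up 9.76% of the 41, against 2.29% of all genes, and 0 were called as lower, against 2.61%. At an unadjusted p under 0.05, 12 members were higher and 0 lower, a description only because all genes were not counted there. DESeq2 called 5 higher (against 3.07% of all genes) and 0 lower (against 3.55%). The log2 fold change was below 0 for 5 of 41 members (12.2%), against 49.9% of all genes, and the median was 0.10. The 3 C269S libraries lay above all 3 IDH1mt libraries for 20 members (48.8%, against 11.8% of all genes) and below them for 0 (against 11.8%). This comparison shares its IDH1mt libraries with that of IDH1mt and PCDH, so the members that moved in both are not separate evidence.

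**Figure D3:**
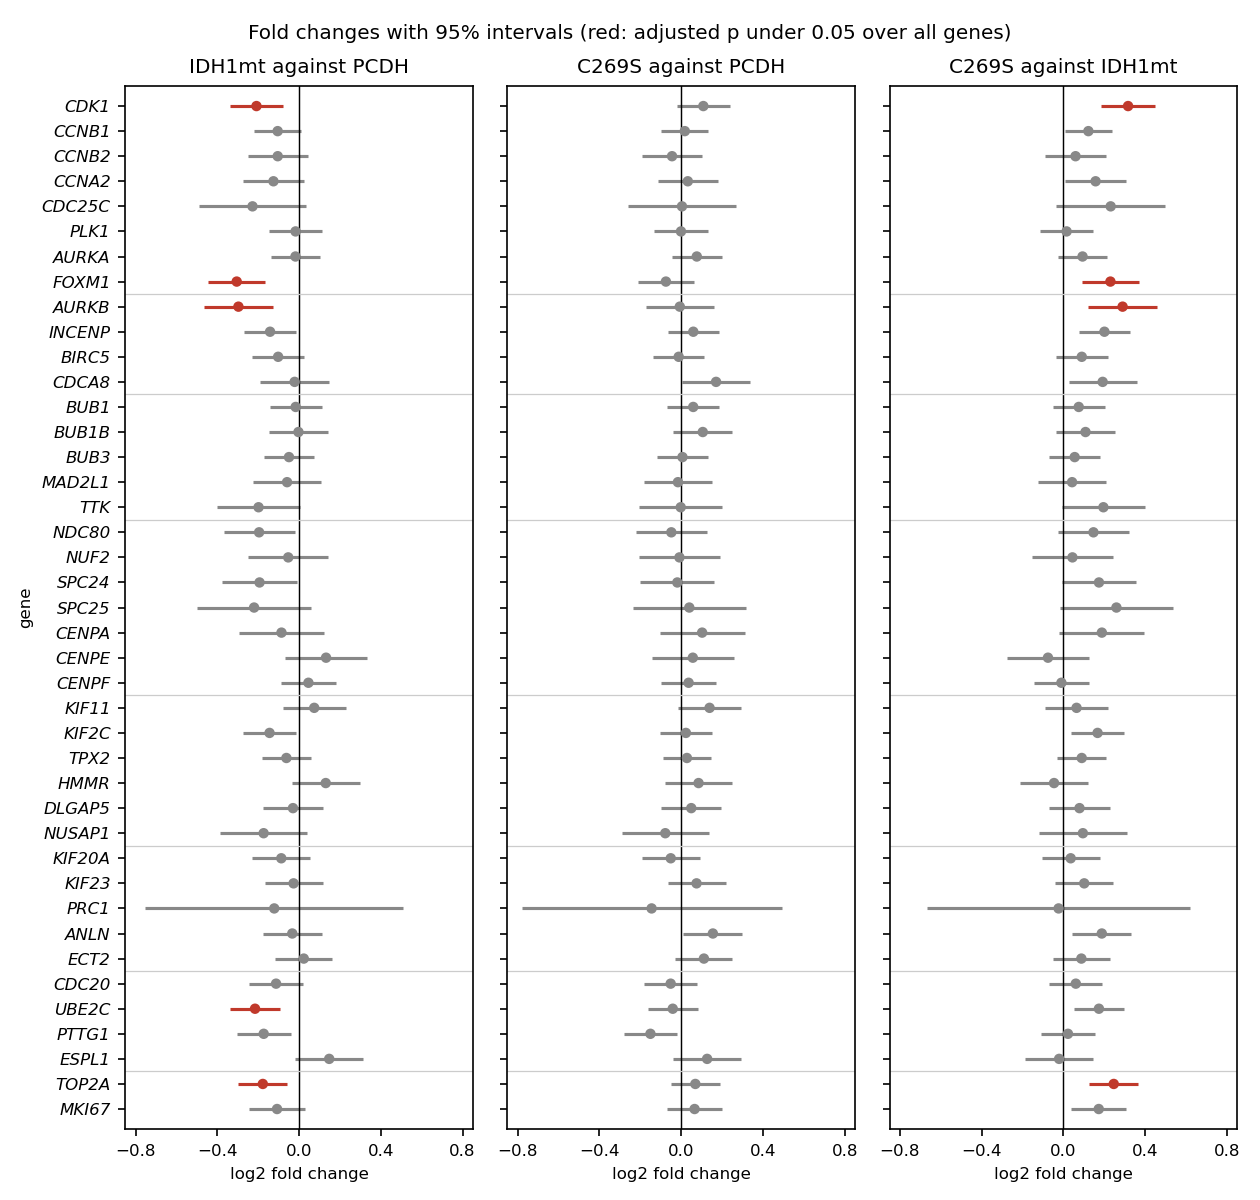
Log2 fold change (points) with its 95% interval (lines) for each of the 41 genes in IDH1mt against PCDH, C269S against PCDH and C269S against IDH1mt, with genes in red at an adjusted p under 0.05 over all genes. There are 5 red genes left of 0 in the first panel, 0 in the second and 4 right of 0 in the third.

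Counts of called members moved with single libraries. Between IDH1mt and PCDH, 5 members were lower with all libraries, 3 without PCDH replicate 1 (against 4.68% of all genes) and 2 without any one of the IDH1mt libraries (against 4.35 to 4.4% of all genes). A count of 2 among 41 is near that background. Without PCDH replicate 3, 5 members were lower (background 8.58%) and CENPE was higher (background 9.17%), and 24 of 41 fold changes were below 0. Between C269S and IDH1mt, 4 members were higher with all libraries, 1 without C269S replicate 1 or IDH1mt replicate 1, and 2 without C269S replicate 2, C269S replicate 3 or IDH1mt replicate 3, against 1.1 to 1.6% of all genes in these fits. Without PCDH replicate 3, 7 members were higher (background 3.55%). Without both PCDH replicate 3 and C269S replicate 3, IDH1mt against PCDH gave 5 lower (background 9.65%) and 2 higher, CENPE and HMMR (background 10.8%). On the same libraries C269S against PCDH gave 7 higher, among them CDK1 and TOP2A, against 6.01% of all genes, and C269S against IDH1mt gave 6 higher, against 3.52%. After the GC correction, 8 members were lower (background 8.8%) and 0 higher (background 9.21%) in IDH1mt than in PCDH. Between C269S and PCDH, 0 were lower (background 1.24%) and 0 higher (background 2.25%), and 8 were higher in C269S than in IDH1mt (background 4.08%).

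Among the genes of mitotic entry, CDK1 and FOXM1 passed the test. CDK1 (ENSG00000170312, chromosome 10, 60778331 to 60794852 on GRCh38), the kinase that starts mitosis, had 132, 136 and 116 CPM in C269S libraries, 104, 103 and 102 CPM in IDH1mt libraries, and 119, 116 and 122 CPM in PCDH libraries. All 3 IDH1mt libraries lay below every other library, while C269S and PCDH libraries overlapped. Its log2 fold change was -0.21 (SE 0.06, adjusted p = 0.0262) in IDH1mt against PCDH and 0.32 (SE 0.06, adjusted p = 0.00178) in C269S against IDH1mt, by edgeR's test. In C269S against PCDH it was 0.11 (SE 0.06, adjusted p = 0.528). The higher level in C269S than in IDH1mt passed in 20 of 20 alternative settings, and the lower level in IDH1mt than in PCDH in 14 of 20.

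FOXM1 (ENSG00000111206, chromosome 12, 2857681 to 2877155) codes for a transcription factor of late cell cycle genes. It had 93.0, 90.2 and 98.8 CPM in C269S libraries, 83.7, 76.0 and 80.7 CPM in IDH1mt libraries, and 106, 98.9 and 92.0 CPM in PCDH libraries. IDH1mt was again below both other groups without overlap. FOXM1 had a log2 fold change of -0.30 (SE 0.07, adjusted p = 0.00201) in IDH1mt against PCDH, the lowest value among the members, and it passed in 20 of 20 alternatives. In C269S against IDH1mt it was 0.23 (SE 0.07, adjusted p = 0.0454), which passed in 11 of 20, and in C269S against PCDH -0.07 (SE 0.07, adjusted p = 0.728). ITFG2, a gene on the opposite strand, covers 15.9% of the exon bases of FOXM1, and its own log2 fold change in IDH1mt against PCDH was 0.03 (adjusted p = 0.931).

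CCNB1, the cyclin B1 that activates CDK1, had 193, 203 and 197 CPM in C269S libraries, 185, 173 and 187 CPM in IDH1mt libraries, and 194, 189 and 202 CPM in PCDH libraries. The IDH1mt libraries were below the rest here too, but the difference from PCDH was smaller (log2 fold change -0.10, SE 0.06, adjusted p = 0.241). In C269S against IDH1mt the log2 fold change was 0.12 (SE 0.06, adjusted p = 0.264). The other entry genes were CCNB2, CCNA2, the phosphatase CDC25C that activates CDK1, and the kinases PLK1 and AURKA. In IDH1mt against PCDH their log2 fold changes ran from -0.23 for CDC25C to -0.02 for PLK1 and AURKA, and none passed. PLK1, a kinase of spindle assembly, had nearly equal means of 128 ± 8.76 CPM in C269S, 127 ± 7.47 CPM in IDH1mt and 128 ± 3.11 CPM in PCDH (SD, n = 3 each).

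The chromosomal passenger complex corrects faulty attachments of chromosomes and is built of the kinase AURKB with INCENP, BIRC5 (survivin) and CDCA8 (borealin). AURKB (ENSG00000178999, chromosome 17, 8204733 to 8210600) had 57.1, 48.7 and 62.8 CPM in C269S libraries, 44.0, 46.2 and 47.9 CPM in IDH1mt libraries, and 59.4, 56.4 and 53.7 CPM in PCDH libraries. IDH1mt lay below both other groups, with C269S replicate 2 less than 1 CPM above the highest IDH1mt library. AURKB had a log2 fold change of -0.30 (SE 0.08, adjusted p = 0.0133) in IDH1mt against PCDH and 0.29 (SE 0.08, adjusted p = 0.0359) in C269S against IDH1mt. The first passed in 16 of 20 alternatives and the second in 11 of 20. In C269S against PCDH it was -0.01 (SE 0.08, adjusted p = 0.986), and its sign changed under 3 alternatives.

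INCENP, the scaffold of the complex, had 110.3, 111 and 114 CPM in C269S libraries, 94.3, 98.0 and 99.3 CPM in IDH1mt libraries, and 106, 112 and 103 CPM in PCDH libraries. No IDH1mt library reached the others, but the adjusted p was 0.054 in C269S against IDH1mt (log2 fold change 0.20, SE 0.06) and 0.133 in IDH1mt against PCDH (-0.14, SE 0.06). CDCA8 had 46.0, 48.0 and 52.0 CPM in C269S libraries, 42.1, 44.7 and 40.9 CPM in IDH1mt libraries, and 45.1, 38.8 and 46.0 CPM in PCDH libraries. The lowest C269S library and the highest PCDH library were nearly equal, and IDH1mt overlapped with PCDH. CDCA8 passed in no comparison, with an adjusted p of 0.405 in C269S against PCDH (log2 fold change 0.17, SE 0.08), 0.213 in C269S against IDH1mt (0.19, SE 0.08) and 0.905 in IDH1mt against PCDH (-0.02, SE 0.08). The C269S libraries lay above all IDH1mt libraries for the 4 genes of the complex, as they did for 48.8% of the 41 members and 11.8% of all genes, and AURKB alone passed the test in that comparison. BIRC5 averaged 124 ± 1.68 CPM in C269S, 117 ± 3.04 CPM in IDH1mt and 125 ± 8.35 CPM in PCDH (SD, n = 3 each).

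**Figure D4:**
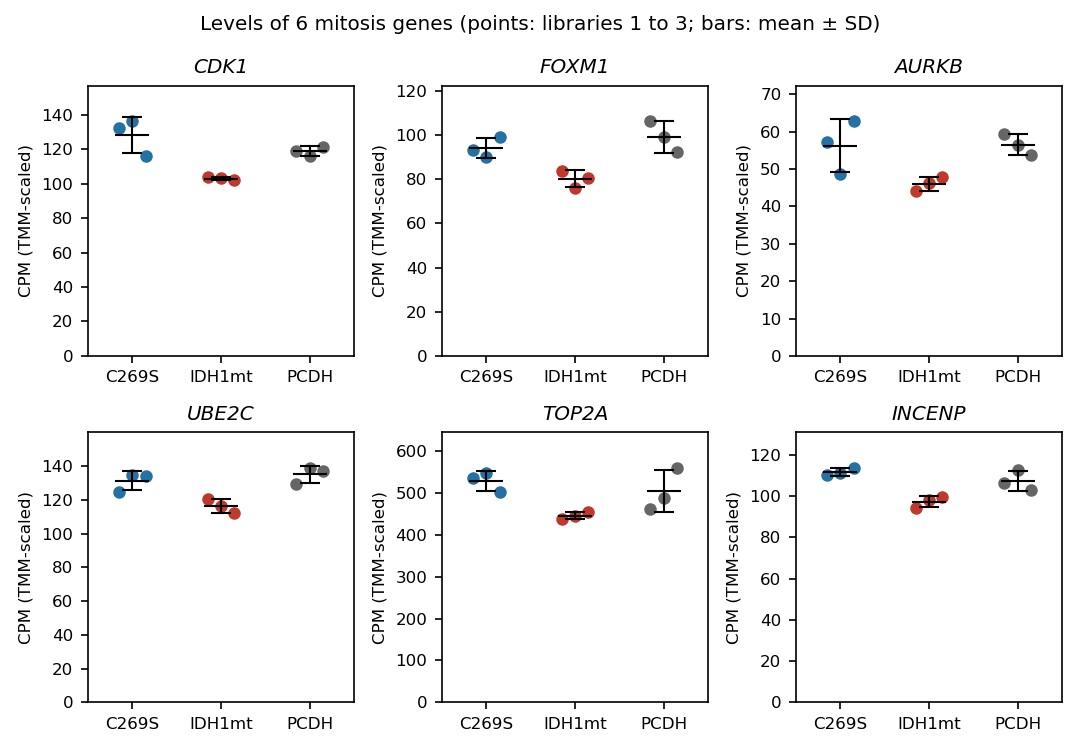
TMM-scaled CPM of CDK1, FOXM1, AURKB, UBE2C, TOP2A and INCENP in the 3 C269S, 3 IDH1mt and 3 PCDH libraries (points), with the mean and SD (bars). The 3 IDH1mt points lie below all points of both other groups in each of the 6 panels.

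The spindle checkpoint genes passed the test in no comparison. TTK, the kinase that sets the checkpoint off, had 29.2, 26.4 and 23.6 CPM in C269S libraries, 23.5, 23.8 and 21.9 CPM in IDH1mt libraries, and 24.1, 25.5 and 29.6 CPM in PCDH libraries. The IDH1mt libraries were below those of PCDH and overlapped with those of C269S. TTK gave a log2 fold change of -0.20 (SE 0.10, adjusted p = 0.206) in IDH1mt against PCDH and 0.20 (SE 0.10, adjusted p = 0.333) in C269S against IDH1mt. BUB1, BUB1B, BUB3 and MAD2L1, which carry the checkpoint signal to CDC20, had log2 fold changes of -0.06 or closer to 0 in IDH1mt against PCDH. BUB1B, for example, averaged 71.7 ± 3.96 CPM in IDH1mt and 71.8 ± 3.02 CPM in PCDH (SD, n = 3 each).

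Kinetochore and centromere genes went both ways, and none of the 7 passed in any comparison. NDC80, the microtubule-binding subunit of the complex named after it, had 40.5, 41.3 and 36.5 CPM in C269S libraries, 36.1, 35.7 and 34.9 CPM in IDH1mt libraries, and 39.5, 37.3 and 45.4 CPM in PCDH libraries. IDH1mt was lowest without overlap, at a log2 fold change of -0.20 against PCDH (SE 0.08, adjusted p = 0.133) and 0.15 in C269S against IDH1mt (SE 0.09, adjusted p = 0.415). With the GC correction NDC80 passed as lower in IDH1mt than in PCDH (adjusted p = 0.033, in a range of 0.033 to 0.426 over the alternatives). SPC24, another subunit, had 32.6, 32.2 and 35.3 CPM in C269S libraries, 33.1, 26.6 and 29 CPM in IDH1mt libraries, and 32.5, 34.6 and 34.3 CPM in PCDH libraries. IDH1mt replicate 1 lay within both other groups, and the log2 fold change against PCDH was -0.19 (SE 0.09, adjusted p = 0.161). In C269S against IDH1mt it was 0.17 (SE 0.09, adjusted p = 0.336).

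CENPE, a motor that carries chromosomes to the spindle equator, had 70.7, 71.0 and 65.5 CPM in C269S libraries, 73.5, 69.0 and 75.8 CPM in IDH1mt libraries, and 57.3, 59.9 and 81.8 CPM in PCDH libraries. PCDH replicate 3 was the highest of all 9 libraries and the other PCDH libraries were the lowest. CENPE has the lowest GC content of the members, and its log2 fold change in IDH1mt against PCDH was 0.13 (SE 0.10, adjusted p = 0.422). CENPA, the histone H3 variant of centromeres, and CENPF, NUF2 and SPC25 had log2 fold changes in that comparison from -0.22 for SPC25 to 0.05 for CENPF.

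Among spindle motors and microtubule binders, 0 of 6 passed. KIF2C, which takes microtubules apart at kinetochores, had 96.6, 98.4 and 105 CPM in C269S libraries, 91.1, 89.0 and 86.9 CPM in IDH1mt libraries, and 98.9, 96.7 and 99.7 CPM in PCDH libraries. IDH1mt was below both other groups without overlap, at a log2 fold change of -0.14 against PCDH (SE 0.06, adjusted p = 0.132) and 0.17 in C269S against IDH1mt (SE 0.06, adjusted p = 0.141). KIF11, the motor that pushes spindle poles apart, and HMMR, a microtubule-binding protein, ran the other way with log2 fold changes of 0.07 and 0.13 in IDH1mt against PCDH. TPX2 and DLGAP5, which help to assemble the spindle, had -0.06 and -0.03. NUSAP1, which bundles spindle microtubules, had -0.17 (adjusted p = 0.303), but 62.2% of its exon bases are also annotated to another gene, and its 315 to 414 counts per library are uncertain for that reason.

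No gene of the central spindle and cytokinesis passed either. ANLN, which organizes actin and septins in the cleavage furrow, had 227, 207 and 202 CPM in C269S libraries, 189.7, 184 and 184 CPM in IDH1mt libraries, and 168, 186 and 217 CPM in PCDH libraries. C269S was above IDH1mt without overlap. PCDH overlapped with both, and C269S replicate 1 lay above every PCDH library. ANLN differed by a log2 fold change of 0.19 in C269S against IDH1mt (SE 0.07, adjusted p = 0.142) and -0.03 in IDH1mt against PCDH (SE 0.07, adjusted p = 0.816), where the sign changed without PCDH replicate 3. KIF23 and KIF20A, motors of the central spindle, and ECT2, which activates RhoA at the furrow, had log2 fold changes of -0.09 to 0.02 in IDH1mt against PCDH. PRC1 had 26 to 67 counts per library, and 58.4% of its exon bases are shared with other annotated genes, so its values bear on no statement here.

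UBE2C passed among the genes of anaphase. It codes for a ubiquitin-conjugating enzyme of the anaphase-promoting complex (ENSG00000175063, chromosome 20, 45812576 to 45816957) and had 125, 135 and 134 CPM in C269S libraries, 120.4, 116 and 112 CPM in IDH1mt libraries, and 129.5, 139 and 137 CPM in PCDH libraries. IDH1mt was lowest without overlap. UBE2C had a log2 fold change of -0.22 (SE 0.06, adjusted p = 0.0142) in IDH1mt against PCDH, which passed in 17 of 20 alternatives. It was 0.17 (SE 0.06, adjusted p = 0.106) in C269S against IDH1mt and -0.04 (SE 0.06, adjusted p = 0.85) in C269S against PCDH.

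PTTG1, securin, the inhibitor of separase, had 99.2, 107 and 103 CPM in C269S libraries, 104, 103 and 97.5 CPM in IDH1mt libraries, and 117, 106 and 121 CPM in PCDH libraries. IDH1mt libraries lay below those of PCDH without overlap, while C269S libraries overlapped with both other groups. The log2 fold change was -0.17 (SE 0.06, adjusted p = 0.0724) in IDH1mt against PCDH, -0.15 (SE 0.06, adjusted p = 0.325) in C269S against PCDH and 0.02 (SE 0.06, adjusted p = 0.912) in C269S against IDH1mt. The mean was 103 ± 4.0 CPM in C269S and 101 ± 3.42 CPM in IDH1mt, and 114 ± 7.64 CPM in PCDH (SD, n = 3 each), but neither difference from PCDH passed. ESPL1, separase itself, which cuts cohesin, had 55.1, 62.8 and 71.6 CPM in C269S libraries, 63.0, 66.4 and 62.9 CPM in IDH1mt libraries, and 61.5, 59.1 and 53.1 CPM in PCDH libraries. It is the member above PCDH in all 3 IDH1mt libraries (log2 fold change 0.15, SE 0.08, adjusted p = 0.256). CDC20, the activator of the anaphase-promoting complex, averaged 136 ± 11.9 CPM in C269S, 130.3 ± 3.43 CPM in IDH1mt and 141 ± 4.44 CPM in PCDH (SD, n = 3 each).

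TOP2A, the topoisomerase that untangles sister chromosomes (ENSG00000131747, chromosome 17, 40388516 to 40417950), had 535, 548 and 502 CPM in C269S libraries, 437, 445 and 454 CPM in IDH1mt libraries, and 462, 489 and 559.6 CPM in PCDH libraries. IDH1mt was lowest, the gap to PCDH replicate 1 was small, and C269S lay within the range of PCDH. TOP2A had a log2 fold change of -0.18 (SE 0.06, adjusted p = 0.0418) in IDH1mt against PCDH, where the call was lost in 12 of 20 alternatives, among them the fit without PCDH replicate 3 (adjusted p = 0.231, in a range of 0.00201 to 0.231 over the alternatives). It was 0.25 (SE 0.06, adjusted p = 0.00986) in C269S against IDH1mt, which passed in 15 of 20, and 0.07 (SE 0.06, adjusted p = 0.708) in C269S against PCDH. MKI67, the proliferation marker Ki-67 that coats mitotic chromosomes, had 387, 430.0 and 408 CPM in C269S libraries, 325, 399.7 and 362 CPM in IDH1mt libraries, and 401, 358 and 412 CPM in PCDH libraries. The groups overlapped, and neither -0.11 in IDH1mt against PCDH (SE 0.07, adjusted p = 0.317) nor 0.17 in C269S against IDH1mt (SE 0.07, adjusted p = 0.153) passed.

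Levels were compared between genes per length, as the FPKM values deposited by the authors. In PCDH cells UBE2C was highest at 104 ± 4.06 FPKM, followed by TOP2A at 77.5 ± 7.92, CCNB1 at 75.7 ± 2.64, TPX2 at 73.9 ± 6.01 and CDC20 at 68.5 ± 1.99 FPKM (SD, n = 3 each). TOP2A, CCNB1, TPX2 and CDC20 do not differ from their neighbours in that order beyond their spread, while UBE2C stands clear of TOP2A. FOXM1 ranked 21 at 20.03 ± 1.38 FPKM and AURKB 15 at 24.98 ± 1.2 FPKM. The lowest were TTK at 5.72 ± 0.63, CDC25C at 3.62 ± 0.421 and PRC1 at 0.397 ± 0.103 FPKM.

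Related genes outside the 41 were described in 8 lists by role. Their counts stand against 6.9% of all genes called as lower and 7.18% as higher in IDH1mt against PCDH. In IDH1mt against PCDH, the list of mitotic entry kinases and phosphatases held 3 genes lower (18.8%) and 0 higher of 16, with a median log2 fold change of -0.12. Of these CDC25B, a phosphatase that activates CDK1, fell by 0.49 on the log2 scale (SE 0.08, adjusted p = 2.4e-05), and PKMYT1 and MELK fell by 0.44 and 0.25. Condensin and cohesin gave 4 lower (23.5%) and 1 higher (5.88%) of 17, with CDCA5 (sororin) at -0.31, SMC2 at -0.26 and PDS5B at 0.34. Spindle motors, microtubules and centrosome gave 7 lower (20.6%) and 2 higher (5.88%) of 34, where HAUS5 and HAUS6, both subunits of augmin, had opposite log2 fold changes of -0.61 and 0.67. Of 35 kinetochore, centromere and checkpoint genes, 3 were lower (8.57%) and 0 higher, with MIS12 at -0.48. Cytokinesis gave 1 lower of 15 (6.67%), the kinase CIT at -0.33 (adjusted p = 0.000149). The shares called as lower in the kinetochore and cytokinesis lists are near that of all genes. The anaphase-promoting complex with its regulators gave 2 lower (11.8%) and 1 higher (5.88%) of 17.

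Regulators of the DREAM, MuvB and E2F systems, which repress or activate the cell cycle promoters, gave 6 lower (28.6%) and 1 higher (4.76%) of 21. CDKN1A, the CDK inhibitor p21, fell by 0.52 (adjusted p = 1.07e-08) to 265 ± 2.23 CPM in IDH1mt, against 380.0 ± 13.04 CPM in PCDH, and CDKN1B, the CDK inhibitor p27, rose by 0.27 (adjusted p = 0.00502). MYBL2 fell by 0.31. Replication and G1/S genes gave the most, with 11 lower and 0 higher of 38 and a median of -0.17. The share of these genes called as lower was 28.9%, against 12.2% of the mitosis and spindle genes and 6.9% of all genes. The difference between the shares was not tested.

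In C269S against PCDH, HAUS5 was the gene of the 8 lists that passed (log2 fold change -0.39, adjusted p = 0.0464). In C269S against IDH1mt, where 2.29% of all genes were higher and 2.61% lower, replication and G1/S genes gave the most calls, with 5 higher (13.2%) and 0 lower of 38. PCNA, the sliding clamp of DNA polymerases, was higher by 0.34 on the log2 scale (adjusted p = 0.00289), and the helicase subunits MCM3, MCM5, MCM7 and MCM6 by 0.29, 0.26, 0.23 and 0.25. Of 34 spindle motor and centrosome genes, 4 were higher (11.8%) and 1 lower (2.94%), among them KIF15 at 0.39, KNSTRN at 0.28, KIF22 at 0.26 and HAUS6 at -0.51. Of the regulators, 3 were higher (14.3%) and 1 lower (4.76%) of 21, with CDKN1A at 0.50 and CDKN1B at -0.32. CDC25B (0.36), CIT (0.22) and FBXO5 (0.33), an inhibitor of the anaphase-promoting complex, were each the 1 gene higher in its list (6.25, 6.67 and 5.88%). Kinetochore genes and condensin and cohesin gave 0 in either direction by edgeR's test. At an unadjusted p under 0.05, 4 and 6 were higher and 1 and 0 lower, a description only because all genes were not counted there.

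The mean log2 CPM difference of the 41 genes from the PCDH mean was -0.01, 0.05 and 0.03 in C269S libraries, -0.09, -0.10 and -0.07 in IDH1mt libraries, and -0.03, -0.03 and 0.06 in PCDH libraries. The IDH1mt values lie below all others, and PCDH replicate 3 is the highest library. Over all tested genes the same mean stayed between -0.02 and 0.03 in every library. For the replication and G1/S genes it was -0.19, -0.21 and -0.16 in IDH1mt libraries, farther from PCDH than for the mitosis and spindle genes.

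**Figure D5:**
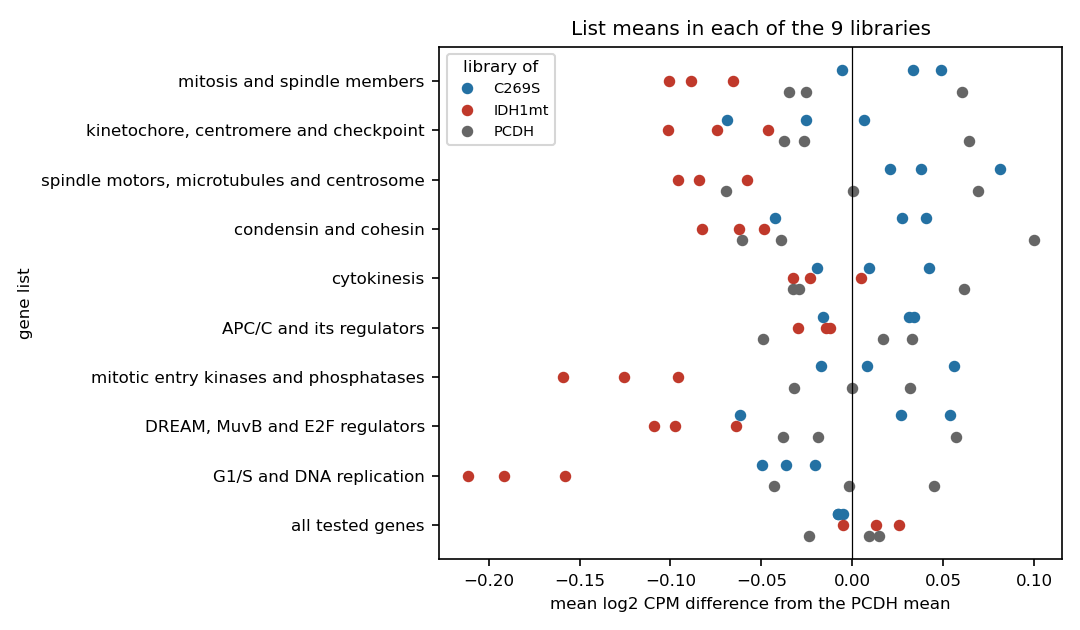
Mean log2 CPM difference from the PCDH mean for the 41 genes, 8 lists of related genes and all tested genes (rows), with 1 point for each C269S, IDH1mt and PCDH library. For the 41 genes the IDH1mt points lie at -0.10 to -0.07, left of all others, and for G1/S and DNA replication at -0.21 to -0.16.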

How the data were processed

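Total RNA of 9 U87 libraries was sequenced, per the labels. The deposited count values are whole-number reads per gene, aligned with HISAT2 version 2.0.5 and counted with featureCounts version 1.5.0-p3 on GRCh38 (hg38), per the submitters' processing notes. Neither kit nor strand setting is given in the sources used here, so reads of overlapping genes may be split. The deposited FPKM values equal count over length and library total, times 1 factor per library. Table columns were matched to groups by their names.

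Genes passing edgeR's filterByExpr (16874) were scaled by TMM and fitted in 1 model of all 9 libraries, with a mean per group, by edgeR's quasi-likelihood F test (edgeR 4.0.16, R 4.3.3, robust). P-values were adjusted by Benjamini-Hochberg over all genes and called under 0.05. The SE is the absolute log2 fold change over the square root of F. An exact two-sided permutation test of 3 against 3 libraries cannot go below 0.1 and was not used. The script was tested on simulated counts.

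The members and lists were chosen with earlier results of these data known. Values by library are given for members called in a comparison, filled to 15 by lowest adjusted p. From each other list, up to 4 called genes with the lowest adjusted p could be named. PDS5B, CENPE, ESPL1, MCM6 and the members with 1 library out were named after their values were seen. Alternatives were DESeq2 (version 1.42.0), its size factors, library size alone, other filters, the 6 libraries of a comparison, limma (version 3.58.1) on log2 FPKM, the replicate number as a block, and each library left out. A GC correction (a smooth curve of each library's deviation on transcript GC content, as an offset) and the fit without PCDH replicate 3 and C269S replicate 3 were added after the data were seen. Replicates of a group differed by more than sampling noise.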

Additional observations from a re-analysis of the deposited data

How the results depend on the processing

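With 3 libraries a group, the 95% intervals of 40 of 41 members lay within a 1.5-fold change, so larger changes of those members lay outside the intervals. Smaller ones may be missed. In simulated counts for IDH1mt against PCDH, 94% of 50 genes given a 1.5-fold change were called. The simulated libraries did not carry the deviations along GC content seen here, so recovery in the data can differ. Of genes given smaller changes, near in size to those of the called members, 10 to 48% were called. Members that were not called may therefore have changed by such an amount. Between IDH1mt and PCDH, 5 members were lower and 0 higher. With library size alone 9 were lower (against 10% of all genes), with limma on log2 of FPKM plus 1 or plus 0.1 it was 2 each (against 4.4% and 4.34%), with the GC correction 8 (against 8.8%), and with 1 library left out 2 to 5 lower and 0 to 1 higher. Without PCDH replicate 3 and C269S replicate 3, 2 were higher. Between C269S and PCDH, 0 were higher. The count was 0 to 4 with 1 library left out and 7 without both of those libraries. Between C269S and IDH1mt, 4 were higher. The count was 7 with the 6 libraries alone (against 3.63% of all genes), 1 with limma on either FPKM scale (against 1.08% and 1.14%), 8 with the GC correction and 1 to 7 with 1 library left out. The labels number the replicates alike in each group, but no same-numbered pair deviated together (9 correlations of -0.09 to 0.06, none above 0.1), and not every library correlated best with its own number. With the replicate number as a block, 4 members were lower in IDH1mt than in PCDH (against 5.59% of all genes). In that fit 2 were higher in C269S than in IDH1mt (against 1.64%). Between C269S and PCDH 0 differed (against 0.362% lower and 0.658% higher).

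Of 720 values of single genes under the alternatives, 632 kept direction and side of the threshold. Of the rest, 48 lost a call, 29 gained one and 11 changed sign. The values with a changed sign reached at most 0.086 in size. With libraries left out, CDCA8 in IDH1mt against PCDH ranged from -0.10 to 0.031, and was above 0 in the fits that lacked PCDH replicate 1 (0.0081), PCDH replicate 3 (0.025), IDH1mt replicate 3 (0.0046) or PCDH and C269S replicate 3 together (0.031). ANLN in that comparison ranged from -0.12 to 0.077, with 0.073 in the fit that lacked PCDH replicate 3. AURKB in C269S against PCDH ranged from -0.13 to 0.086, with 0.031 in the fit that lacked PCDH replicate 1, and was 0.016 with the GC correction. PTTG1 in C269S against IDH1mt ranged from -0.0058 in the fit that lacked C269S replicate 2 to 0.050, with -0.0043 when IDH1mt replicate 3 was out. With library size alone, the median of all genes in IDH1mt against PCDH was -0.055, against -0.008 in the main fit. For the members it was -0.149, against -0.102. With DESeq2 size factors these medians were -0.002 for all genes and -0.096 for the members. The cause of these changes was not tested.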
